A study of Mus musculus with 11 samples.

Results

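Mouse embryonic stem (ES) cell lines that carried Dnmt3b1 as their added de novo DNA methyltransferase were set against 6 libraries of sister lines that carried Dnmt3a1 or Dnmt3a2 instead. These 8 libraries, of 11 in the study, were chosen by their labels: TKO+Dnmt3b1 and DKO+Dnmt3b1 on one side, and TKO+Dnmt3a1 (2 libraries), TKO+Dnmt3a2 (2 libraries), DKO+Dnmt3a1 and DKO+Dnmt3a2 on the other. TKO cells lacked Dnmt1, Dnmt3a and Dnmt3b, and DKO cells lacked Dnmt3a and Dnmt3b only, so that Dnmt1 was absent from all TKO lines and present in all DKO lines. The 3 further libraries were the TKO and DKO parents and the wild-type (WT) line J1, which served for context. All lines were of strain 129S4/SvJae and grew on irradiated mouse embryonic fibroblasts in serum with LIF, and polyA RNA was sequenced. Each line stands for its genotype, each Dnmt3b1 line had 1 library, and differences between clones cannot be told apart from differences between enzymes. Nothing in the labels tells whether a line's libraries were grown apart, so that p-values measure only the spread between these libraries. The question put to the data was which transcripts differ by the enzyme put back, and which of these belong to the ES cells and not to the feeder layer.

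Dnmt3a and Dnmt3b place methyl groups on unmethylated CpG sites, and Dnmt1 copies the marks to the new strand after replication. Dnmt3a1 and Dnmt3a2 are a longer and a shorter form of the same enzyme, and Dnmt3a2 and Dnmt3b1 are the main forms of ES cells. DNA methylation silences germline genes, imprinted alleles and retroelements in these cells. A feeder layer of irradiated fibroblasts supports ES cells and leaves its own RNA in the extract. In such bulk RNA, more cells of a type and more RNA per cell cannot be told apart.

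The labels were first checked against the enzymes' own transcripts. Dnmt3b stood at 100 RPKM (reads scaled for transcript length and library depth) in TKO+Dnmt3b1 and 29.6 RPKM in its DKO counterpart. The Dnmt3a libraries held 28.9 and 20.9 RPKM (TKO+Dnmt3a1), 44.4 and 32.9 RPKM (TKO+Dnmt3a2), 13.3 RPKM (DKO+Dnmt3a1) and 14.7 RPKM (DKO+Dnmt3a2). Within each family the Dnmt3b1 library was the highest, and over both families the ranges overlapped. The difference in log2(RPKM + 0.5), Dnmt3b1 minus Dnmt3a with family as a term, was 1.40 (SE 0.25; adjusted p = 0.00621, limma). Dnmt3a was at 10.2 (TKO) and 6.76 (DKO) RPKM with Dnmt3b1, against 39.4 and 34.2 RPKM (TKO+Dnmt3a1), 21.8 and 11.1 RPKM (TKO+Dnmt3a2), 17.6 RPKM (DKO+Dnmt3a1) and 11.4 RPKM (DKO+Dnmt3a2). Both Dnmt3b1 libraries lay below all 6 Dnmt3a libraries, and the difference of −1.11 (SE 0.42) missed the threshold (adjusted p = 0.0791). The parents held 4.24 (TKO) and 3.63 (DKO) RPKM of Dnmt3a and 45.3 (TKO) and 5.68 (DKO) RPKM of Dnmt3b. With 1 value a gene, isoforms are not separated, nor is what a knockout locus still transcribes from the added copy. Dnmt1 was at 12.4 (TKO) and 55.9 (DKO) RPKM with Dnmt3b1, against 7.27 to 9.80 RPKM in the TKO Dnmt3a libraries and 59.8 and 63.1 RPKM in the DKO Dnmt3a libraries.

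Dnmt3b1 and Dnmt3a libraries differed widely. Of 14016 genes that reached 1 RPKM in any of the 8 libraries, 2263 were higher (16.1%) and 1551 were lower (11.1%) with Dnmt3b1 at an adjusted p under 0.05, together 3814 (27.2%); at an unadjusted p under 0.05 the shares were 22.7%, 18.8% and 41.5%. The rises were the larger in size: 1191 genes (8.5%) rose and 161 genes (1.15%) fell by 1 or more on the log2 scale, while the median over all genes was 0.01. Both Dnmt3b1 libraries lay above every Dnmt3a library of their own family for 28.5% of genes and below every one for 25.9%. On the first principal component of the 8 libraries, with 46.4% of the variance, Dnmt3b1 libraries scored 59.8 (TKO) and 57.8 (DKO), and Dnmt3a libraries scored from −33.7 to 5.6, the highest being TKO+Dnmt3a2 replicate 1. The count rested on both Dnmt3b1 libraries. It was 413 without TKO+Dnmt3b1 and 1078 without DKO+Dnmt3b1, fits in which the remaining single library is assumed to vary like the others. It was 2511 without DKO+Dnmt3a2.

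Markers of fibroblasts and macrophages were higher with Dnmt3b1. The mean log2(RPKM + 0.5) of the fibroblast markers, here the fibroblast index, was 5.54 (TKO) and 5.16 (DKO) with Dnmt3b1. It was 3.44 and 3.27 (TKO+Dnmt3a1), 3.93 and 3.35 (TKO+Dnmt3a2), 3.30 (DKO+Dnmt3a1) and 1.79 (DKO+Dnmt3a2) with Dnmt3a. The arms did not overlap, and DKO+Dnmt3a2 stood below all other libraries. Summed over the list, fibroblast markers came to 4039 (TKO+Dnmt3b1) and 3020 (DKO+Dnmt3b1) RPKM, against 357.7 to 1500 RPKM in the Dnmt3a libraries. The macrophage index was 2.89 (TKO) and 2.77 (DKO) with Dnmt3b1, against −0.51 (DKO+Dnmt3a2) to 0.92 in the Dnmt3a libraries. The summed macrophage markers were at 381.2 (TKO+Dnmt3b1) and 347.4 (DKO+Dnmt3b1) RPKM, against 14.65 to 95.48 RPKM in the Dnmt3a libraries. Of the 28 macrophage markers in the table, 11 were listed at 0 in DKO+Dnmt3a2, among them Tyrobp, C1qa, C1qb and C1qc, and 0 were listed at 0 in either Dnmt3b1 library.

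**Figure D1:**
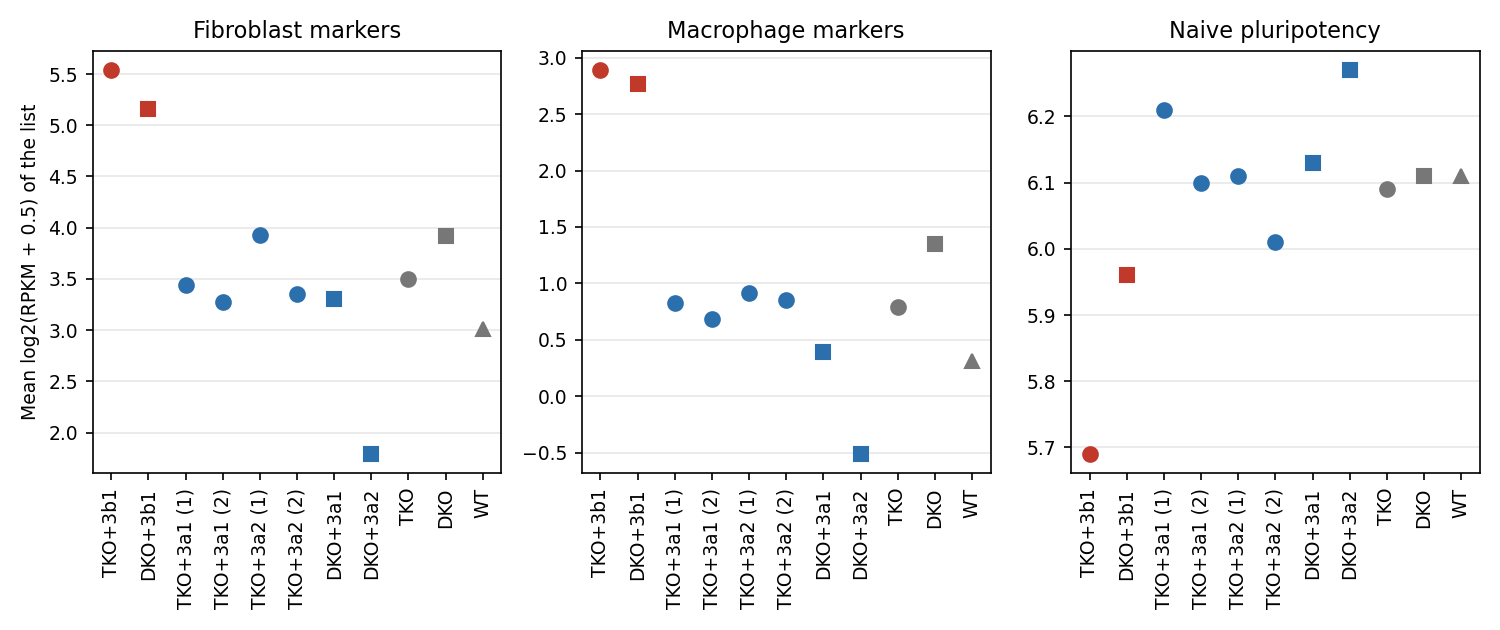
Mean log2(RPKM + 0.5) of the fibroblast, macrophage and naive pluripotency lists (y axes, each with its own range that does not start at 0) in the 11 libraries (x axis; red, Dnmt3b1; blue, Dnmt3a isoforms, with the replicate in brackets; grey, parents and WT; circles, TKO; squares, DKO; triangle, WT; 1 point a library). The 2 Dnmt3b1 libraries are the highest for both feeder lists and the lowest for the naive list, and DKO+Dnmt3a2 is the lowest for both feeder lists.

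Of the 35 fibroblast markers tested, 34 rose and 0 fell, with a median difference of 2.49, and 1 of the 35 reached 1 RPKM only with Dnmt3b1. Over all genes 16.1% rose and 11.1% fell, the shares to set beside the counts of this and the later lists. Lists were chosen with earlier results of these data known, so that such counts are a description. Col1a1, the main fibrillar collagen of fibroblasts, was at 235 (TKO) and 175 (DKO) RPKM with Dnmt3b1, against 39.6, 30.0, 60.2, 34.4, 36.8 and 10.9 RPKM in the Dnmt3a libraries. Its arms did not overlap, and the difference was 2.80 (SE 0.41; adjusted p = 0.00312, limma). Prrx1, a mesenchymal transcription factor, differed by 3.20, and Mmp2, a matrix metalloproteinase, by 0.75. Of the 26 macrophage markers tested, 25 rose and 0 fell, with a median of 2.48. Of these 26, 12 reached 1 RPKM only with Dnmt3b1 and entered the test through it, and of the other 14, 13 rose. C1qc, a complement subunit of macrophages and 1 of those 12, was at 6.91 (TKO) and 5.60 (DKO) RPKM with Dnmt3b1, against 0 to 0.454 RPKM in the Dnmt3a libraries, and differed by 3.19 (SE 0.23). Fibroblast rises numbered 10 without TKO+Dnmt3b1 and 16 without DKO+Dnmt3b1. Of lists for other cells, epithelial markers held 0 rises and 2 falls among 9 (median −0.33), muscle markers 1 and 1 among 6 (median −0.02), and endothelial markers 3 and 2 among 9 (median −0.14). These 3 lists held 0 calls without TKO+Dnmt3b1.

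To separate feeder-type genes from genes of ES cells, every gene was compared with the feeder markers over the 9 libraries other than the Dnmt3b1 pair. That pair gave no values to the sorting, but through the filter it took part in the choice of markers. In the indices, 12 of the 26 macrophage markers and 1 of the 35 fibroblast markers had passed the filter only through Dnmt3b1. A gene tracked the feeder markers if it was on either marker list, or if its r with either index was 0.7 or more at a slope of 0.5 or more. A gene did not track them if its median over those libraries was 1 RPKM or more and its r with both indices was under 0.5. All others lay between. The r was taken without family as a term, and tracking does not make a gene one of feeder cells. Among the tracking genes were 12 of 21 Rhox, Xlr and Mage genes and 8 of 39 germline genes tested. Of the 1054 feeder-tracking genes, 529 (50.2%) rose and 55 (5.22%) fell, with a median of 0.66. Of the 9045 non-tracking genes, 699 (7.73%) rose and 1214 (13.4%) fell, with a median of −0.05. Of the 3917 genes between, 1035 (26.4%) rose and 282 (7.2%) fell, with a median of 0.14. The tracking genes made up 6.04% (TKO) and 4.63% (DKO) of all RPKM with Dnmt3b1, against 2.88% to 3.39% in the TKO Dnmt3a libraries and 1.96% and 1.25% in the DKO Dnmt3a libraries. The non-tracking genes made up 80.11% (TKO) and 83.56% (DKO) with Dnmt3b1, against 83.78% to 84.32% (TKO) and 87.99% and 89.72% (DKO) with Dnmt3a. RPKM are shares of a library, and the split of calls moved with the scaling: after quantile normalization 1963 genes were higher and 2492 lower. Scaled to the naive pluripotency list, which shifts the median of all genes to 0.34, 5262 were higher and 252 lower, and of the non-tracking genes 2896 were higher and 187 lower. With the fibroblast index as a further term 0 genes were called (464 at an unadjusted p under 0.05). Family and arm accounted for a share of 0.84 of the variance of that index, so that the enzyme and the feeder level cannot be told apart in these 8 libraries.

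**Figure D2:**
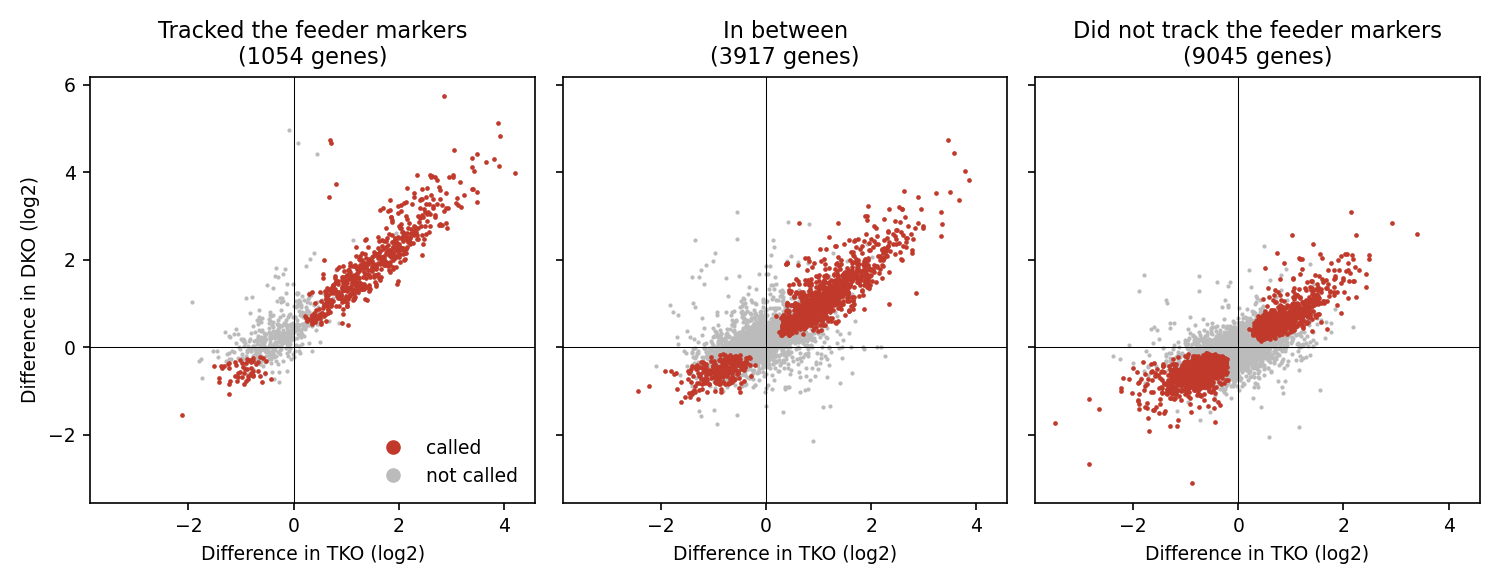
Difference in log2(RPKM + 0.5), Dnmt3b1 minus the mean of the Dnmt3a libraries, in the TKO family (x axis) against the DKO family (y axis), 1 point a gene, for the 1054 genes that tracked the feeder markers, the 3917 between and the 9045 that did not; red, called at an adjusted p under 0.05 (limma). All 3814 called genes have the same sign in both families, which a call on the difference over both families favours by its making. Among called tracking genes most lie upper right, and among called non-tracking genes more lie lower left (1214) than upper right (699).

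The 6 largest rises among feeder-tracking genes were Tnc, Grem1, Lyz2, Lce1g, Inhba and Dkk2. Tnc, the matrix glycoprotein tenascin C, was at 286 (TKO) and 227 (DKO) RPKM with Dnmt3b1, against 17.6, 14.2, 33.5, 15.0, 17.4 and 1.90 RPKM in the Dnmt3a libraries. The difference was 4.45 (SE 0.67; adjusted p = 0.00334, limma), and TKO+Dnmt3a2 replicate 1 was the highest of the Dnmt3a libraries. Grem1, a secreted BMP antagonist, differed by 4.34, Lyz2, the lysozyme of macrophages, by 4.17, Lce1g, of the cornified envelope, by 4.11, Inhba, the subunit of activin A, by 4.03, and Dkk2, a secreted Wnt antagonist, by 4.02. Lyz2 was at 193 (TKO) and 180 (DKO) RPKM with Dnmt3b1, against 0.066 RPKM in DKO+Dnmt3a2 and 19.5 to 30.5 RPKM in the other Dnmt3a libraries. The 6 largest falls in this class, which track the markers without being feeder markers, were Mir7077 (−1.86), Cacng6 (−1.16), Ybx2, a germ cell RNA-binding protein (−1.13), Fam159a (−1.08), Tnnt1, a troponin of slow muscle (−1.05), and Tmem180 (−1.02). Ybx2 was at 5.28 (TKO) and 3.30 (DKO) RPKM with Dnmt3b1, against 12.4, 17.2, 11, 21.2, 5.89 and 6.22 RPKM in the Dnmt3a libraries. Genes named as largest rises or falls, here and below, were chosen with both Dnmt3b1 libraries beyond their family's Dnmt3a libraries. Such separation in them thus follows from the choice.

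Secreted inflammatory and stress factors rose with the feeder markers. Of 39 tested, 28 rose and 0 fell (median 1.8), against 16.1% and 11.1% of all genes. From the 39, 9 reached 1 RPKM only with Dnmt3b1 and entered the test through it. Of the other 30, 19 rose. Of the 39, 17 tracked the feeder markers and 2 did not. Il11, a cytokine of the IL-6 family and 1 of those 9, was at 11.9 (TKO) and 8.46 (DKO) RPKM with Dnmt3b1, against 0.178 to 0.613 RPKM in the Dnmt3a libraries. The arms were far apart, with a difference of 3.53 (SE 0.21). Ptgs2, the inducible cyclooxygenase, differed by 3.42, Mmp12, the macrophage elastase, by 3.92, and Spp1, osteopontin, by 1.60. In the class between, Il1rl1, the receptor of IL-33, was at 209 (TKO) and 158 (DKO) RPKM with Dnmt3b1, against 14.2, 12.1, 39.9, 12.6, 17.7 and 2.41 RPKM in the Dnmt3a libraries, a difference of 3.96 (SE 0.67; adjusted p = 0.00493). Serpinb2, a protease inhibitor of stressed cells, differed by 4.04. Of the list, 21 rose without TKO+Dnmt3b1 and 19 without DKO+Dnmt3b1.

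Genes of the cornified envelope, the protein shell of terminally differentiated keratinocytes, also rose. Of 33 listed, 6 reached 1 RPKM and were tested, and 5 of these rose (median 2.92). All 6 also reached 1 RPKM in a Dnmt3a library. Lce1f was at 21.0 (TKO) and 12.4 (DKO) RPKM with Dnmt3b1, against 0.742, 0.840, 1.94, 0.666 and 1.17 RPKM and a listed 0 in DKO+Dnmt3a2. Lce1g, which tracked the feeder markers, was at 20.2 (TKO) and 12.5 (DKO) RPKM with Dnmt3b1, against 0.075 to 1.37 RPKM with Dnmt3a, a difference of 4.11 (SE 0.34; adjusted p = 0.000527, limma). Of 9 keratinocyte and epithelial markers, 0 rose and 2 fell. Lce1 genes are close copies of each other, and their single values are uncertain. Without TKO+Dnmt3b1, 2 of the 6 rose.

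Of 28 Hox genes tested, the homeobox genes that set position along the body axis, 22 rose and 0 fell (median 1.04). The shares over all genes were 16.1% and 11.1%. Of these 28, 8 reached 1 RPKM only with Dnmt3b1, and of the other 20, 16 rose. Hoxc6 was at 10.6 (TKO) and 7.76 (DKO) RPKM with Dnmt3b1, against 2.83, 2.13, 5.97, 2.16, 2.77 and 0.609 RPKM with Dnmt3a, a difference of 1.87 (SE 0.45; adjusted p = 0.0182, limma). TKO+Dnmt3a2 replicate 1, the Dnmt3a library with the highest fibroblast index, was again the nearest to the Dnmt3b1 pair. Hoxb9, which differed by 1.83, was at 9.92 (TKO) and 7.10 (DKO) RPKM with Dnmt3b1, and at 4.53 RPKM in that library. Of the 28, 5 tracked the feeder markers, 3 did not and 20 lay between. The non-tracking class also asks for a median of 1 RPKM. In single libraries other than the Dnmt3b1 pair, 2 to 17 of the 39 Hox genes listed reached 1 RPKM, so that low level alone can keep a gene out. The list held 0 rises without TKO+Dnmt3b1 and 2 without DKO+Dnmt3b1, and its median was −0.05 with the fibroblast index as a term. Of 24 lysosome and lipid-storage genes, 18 rose and 0 fell (median 0.66), 2 of the 24 reaching 1 RPKM only with Dnmt3b1, led by Gpnmb, a lysosomal glycoprotein of phagocytes (3.04), Cd36, a scavenger receptor (3.02), Fabp4, a fatty acid carrier of macrophages and fat cells (2.44), and Plin2, which coats lipid droplets (2.34). They numbered 6 rises without TKO+Dnmt3b1 and 9 without DKO+Dnmt3b1.

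The 12 largest rises among non-tracking genes included some that mesenchymal cells use, such as Has2, Hmga2 and Zeb2, so that the sorting by markers does not make a gene one of ES cells. Has2, which makes hyaluronan, was at 14.5 (TKO) and 12.7 (DKO) RPKM with Dnmt3b1, against 0.624, 0.919, 1.60, 0.697, 2.21 and 1.29 RPKM in the Dnmt3a libraries, a difference of 3.03 (SE 0.30; adjusted p = 0.00085, limma). Hmga2, a chromatin protein of embryonic and mesenchymal cells, was at 83.8 (TKO) and 64.0 (DKO) RPKM with Dnmt3b1, against 8.03, 8.41, 25.8, 7.15, 14.5 and 4.90 RPKM with Dnmt3a, a difference of 2.88 (SE 0.51; adjusted p = 0.00556). In both genes the arms stood well apart, which within each family follows from how named genes were chosen. Within TKO the highest Dnmt3a value of both came from TKO+Dnmt3a2 replicate 1. Non-tracking rests on an r under 0.5, which on the fibroblast index was 0.486 (Hmga2), 0.344 (Zeb2) and 0.167 (Has2). Replicate 1 minus 2 of TKO+Dnmt3a2 was 1.78 for Hmga2 and 1.54 for Zeb2. DKO+Dnmt3a2 minus DKO+Dnmt3a1 was −1.48 and −1.08, so that both pairs went with the index in sign. With the index as a term the differences were 0.17 (Hmga2), 0.01 (Zeb2) and 2.16 (Has2). Zeb2 and Vgll3, a repressor of epithelial genes and a TEAD cofactor, differed by 2.10 and 2.14. Ctgf, a matrix signalling protein, differed by 2.06, and Arhgdib, a gene of blood cells, by 2.11. Gsto1, a glutathione transferase, was at 173 (TKO) and 129 (DKO) RPKM with Dnmt3b1, against 23.6 to 54.3 RPKM with Dnmt3a, a difference of 2.08 (SE 0.19; adjusted p = 0.000681). The other named rises were Socs5, a brake on cytokine signalling (2.08), Slc25a24, a mitochondrial carrier (2.32), Syde1 (2.27), Stmn4, a stathmin (2.39), and Mir1903 (2.58).

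A stricter view kept the non-tracking genes that differed by under 0.5 (log2) both between the replicates of TKO+Dnmt3a2 and between DKO+Dnmt3a1 and DKO+Dnmt3a2, pairs whose fibroblast indices differed (3.93 and 3.35 in TKO+Dnmt3a2, 3.30 in DKO+Dnmt3a1 and 1.79 in DKO+Dnmt3a2). This view was chosen after values were seen and uses libraries of the test, so its counts are a description: 464 rises and 946 falls among 7278 such genes. These lay near the shares of all non-tracking genes, of which 7.73% rose and 13.4% fell. The largest rise by this rule was Errfi1, a feedback inhibitor of the EGF receptor, at 49.6 (TKO) and 35.1 (DKO) RPKM with Dnmt3b1, against 9.23, 11.7, 13.3, 10.2, 11.2 and 9.78 RPKM with Dnmt3a. The Dnmt3a libraries all lay far below, with a difference of 1.93 (SE 0.16; adjusted p = 0.000527, limma). In this view, that the Dnmt3a libraries lie close together and that SE are small follows in part from the rule. The genes shown were picked from those called, with both Dnmt3b1 libraries beyond every Dnmt3a library of their own family. That the arms lie apart within each family thus follows from the choice. Plaur, the urokinase receptor, was at 38.1 (TKO) and 28.7 (DKO) RPKM with Dnmt3b1, against 5.69 to 11.4 RPKM with Dnmt3a. Id3, a helix-loop-helix inhibitor induced by BMP, was at 55.7 (TKO) and 40.0 (DKO) RPKM with Dnmt3b1, against 13.5 to 21.2 RPKM with Dnmt3a, a difference of 1.47 (SE 0.19; adjusted p = 0.00186). Itgb1, the common beta subunit of matrix-binding integrins, was at 184 (TKO) and 148 (DKO) RPKM with Dnmt3b1, against 55.8 to 75.2 RPKM with Dnmt3a, a difference of 1.36 (SE 0.15; adjusted p = 0.0011).

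FGF-ERK signalling moves ES cells out of the naive state. Of 22 of its targets and brakes tested, 10 rose and 1 fell (median 0.54), against 16.1% and 11.1% of all genes. Among the 16 non-tracking members 6 rose and 1 fell, against 7.73% and 13.4% of all non-tracking genes. Dusp4, a phosphatase that switches off ERK, was at 67.4 (TKO) and 50 (DKO) RPKM with Dnmt3b1, against 14.1, 12.2, 20, 16.4, 24.3 and 20.8 RPKM with Dnmt3a. All Dnmt3a libraries lay below, and the difference was 1.66 (SE 0.24; adjusted p = 0.00265, limma). Dusp5, a nuclear phosphatase of ERK, differed by 1.36, Egr1, an early target of ERK, by 1.24, and Fgfr1, the receptor, by 0.99. Fgf4, the ligand that ES cells make themselves, fell by 0.52, at 51.3 (TKO) and 43.1 (DKO) RPKM with Dnmt3b1, against 57.1 to 104 RPKM with Dnmt3a. Fosl1, Jun and Fosl2, subunits of the AP-1 factor that fibroblasts use widely, differed by 2.74, 2.51 and 2.34. The list held 1 rise without TKO+Dnmt3b1 and 6 without DKO+Dnmt3b1, and its median with the fibroblast index as a term was 0.11.

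Part of the naive pluripotency genes were lower. Of 27 tested, 0 rose and 11 fell (median −0.35), against 16.1% and 11.1% of all genes. Among the 27, 25 did not track the feeder markers. Sox2, a core pluripotency factor, was at 122 (TKO) and 166 (DKO) RPKM with Dnmt3b1, against 267, 253, 235, 242, 245 and 277 RPKM with Dnmt3a. The arms did not overlap, and the difference was −0.85 (SE 0.11; adjusted p = 0.00202, limma). Esrrb, an orphan nuclear receptor of the naive state, was at 56.4 (TKO) and 76.1 (DKO) RPKM with Dnmt3b1, against 91.1 to 123 RPKM with Dnmt3a, a difference of −0.73 (SE 0.10; adjusted p = 0.00247). Pou5f1, which encodes Oct4, differed by −0.32 and Dppa5a, an RNA-binding protein of ES cells, by −0.81. Nanog was at 164 (TKO) and 149 (DKO) RPKM with Dnmt3b1, against 231 to 443 RPKM (TKO) and 148 and 162 RPKM (DKO) with Dnmt3a, and its difference of −0.48 missed the threshold (adjusted p = 0.199). TKO+Dnmt3b1 was the lowest of 6 TKO libraries for 13 of the 27 genes, and DKO+Dnmt3b1 the lowest of 4 DKO libraries for 9. The falls numbered 0 without TKO+Dnmt3b1 and 4 without DKO+Dnmt3b1. Scaled to this list itself, which centres the list by its making and so cannot test its falls, 3 members rose and 2 fell. Among 19 primed epiblast genes 1 rose, which was Dnmt3b itself, and 2 fell (median 0.05).

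In the list of the hypoxia response and glycolysis, 25 of 37 members did not track the feeder markers. Of the 37 tested, 13 fell and 1 rose (median −0.64), against 11.1% and 16.1% of all genes. Both Dnmt3b1 libraries lay below every Dnmt3a library of their family for 28 of the 37, against 25.9% of all genes. The list was chosen with earlier results of these data known, so that both contrasts are a description. The factor HIF1 drives these genes by binding ACGTG or GCGTG. Promoters of 3 strong members are shown from RefSeq (build GRCm38.p6, from 250 bases before the start to 50 after it, written along the gene's strand), with every ACGTG and GCGTG on either strand in capitals, where CACGTG holds ACGTG on both strands.
Bnip3 (chr7:138909457-138909756, minus strand): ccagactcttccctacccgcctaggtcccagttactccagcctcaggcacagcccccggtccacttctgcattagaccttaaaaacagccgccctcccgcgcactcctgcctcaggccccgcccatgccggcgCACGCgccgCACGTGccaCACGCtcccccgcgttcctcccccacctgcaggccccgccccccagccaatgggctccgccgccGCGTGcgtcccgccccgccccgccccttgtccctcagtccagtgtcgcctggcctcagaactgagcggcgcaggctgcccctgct
Ddit4 (chr10:59951721-59952020, minus strand): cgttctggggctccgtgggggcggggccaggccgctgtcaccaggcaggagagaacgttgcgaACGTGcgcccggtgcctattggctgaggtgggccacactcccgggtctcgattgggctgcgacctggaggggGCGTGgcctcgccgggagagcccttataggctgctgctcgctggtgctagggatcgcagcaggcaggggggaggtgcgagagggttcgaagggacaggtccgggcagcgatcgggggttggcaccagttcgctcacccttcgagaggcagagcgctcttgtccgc
Egln3 (chr12:54203825-54204124, minus strand): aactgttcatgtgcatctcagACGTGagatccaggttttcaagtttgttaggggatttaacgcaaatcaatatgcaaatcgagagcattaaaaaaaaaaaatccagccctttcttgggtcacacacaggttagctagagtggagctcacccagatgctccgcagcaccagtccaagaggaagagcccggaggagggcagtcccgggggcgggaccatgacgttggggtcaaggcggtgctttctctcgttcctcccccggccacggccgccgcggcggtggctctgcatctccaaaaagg
The Bnip3 window holds 5 matches, that of Ddit4 2 and that of Egln3 1. Of the 19 promoters listed for 12 of the 13 genes that fell, 84.2% hold a match, against 80.4% of the 51 promoters listed for 33 tested members, 61.7% of the 12935 promoters of genes tested and 43.8% of all 32851 promoters in the table. Among the 40 promoters listed for 34 germline genes tested, a list described below, 80.0% hold a match too. A match is thus not particular to the hypoxia list, and it is a description of letters and not of binding.

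Bnip3, a mitophagy receptor, was at 17.6 (TKO) and 21.7 (DKO) RPKM with Dnmt3b1. In the Dnmt3a libraries it was at 136 and 164 RPKM (TKO+Dnmt3a1), 42.1 and 168 RPKM (TKO+Dnmt3a2), 59.7 RPKM (DKO+Dnmt3a1) and 57.4 RPKM (DKO+Dnmt3a2). The Dnmt3b1 pair lay below all 6, and TKO+Dnmt3a2 replicate 1 was the lowest of those. The difference was −2.08 (SE 0.51; adjusted p = 0.0191, limma). Ndufa4l2, a mitochondrial protein induced by HIF1 that is not on the list and was named as one of the largest falls, was at 2.04 (TKO) and 2.27 (DKO) RPKM with Dnmt3b1, against 41.1, 44.1, 8.97, 35.9, 8.49 and 8.92 RPKM with Dnmt3a, a difference of −2.68 (SE 0.60; adjusted p = 0.0137). Ddit4, an inhibitor of mTORC1, was at 22.4 (TKO) and 21.7 (DKO) RPKM with Dnmt3b1, against 156, 168, 50.8, 171, 46.2 and 41.6 RPKM with Dnmt3a, a difference of −1.78 (SE 0.48; adjusted p = 0.0279). Again the lowest TKO value with Dnmt3a was that of TKO+Dnmt3a2 replicate 1. Of enzymes, Aldoc, an aldolase, differed by −2.09, Pdk1, which holds pyruvate out of the mitochondrion, by −1.04, Tpi1 by −0.83 and Ldha, lactate dehydrogenase, by −0.83. Slc2a3, a glucose transporter, was at 147 (TKO) and 145 (DKO) RPKM with Dnmt3b1, against 232 to 600 RPKM with Dnmt3a, and Egln3, the oxygen sensor induced in hypoxia, differed by −1.30. Hif1a itself was the 1 rise (0.58), at 49.4 (TKO) and 47.2 (DKO) RPKM with Dnmt3b1, against 25 to 38.5 RPKM with Dnmt3a.

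**Figure D3:**
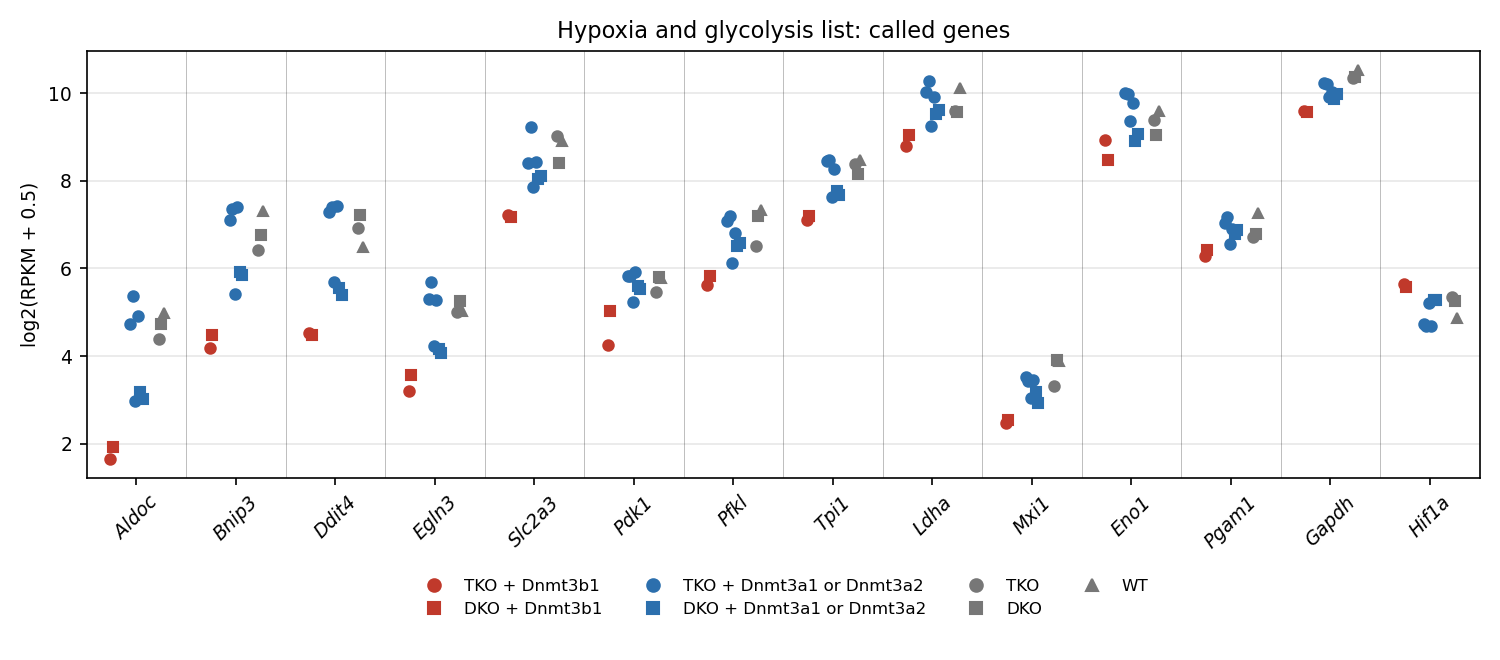
log2(RPKM + 0.5) (y axis) of the 14 called genes of the hypoxia and glycolysis list (x axis, by size of difference), 1 point a library (red, Dnmt3b1; blue, Dnmt3a isoforms; grey, parents and WT; circles, TKO; squares, DKO; triangle, WT). The red points lie below the blue ones in 12 of the 13 genes that fell, with 1 overlap in Eno1, and the lowest blue circle, in all 13, is TKO+Dnmt3a2 replicate 1.

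The spread within the Dnmt3a libraries was part of this pattern. In all 13 genes that fell, TKO+Dnmt3a2 replicate 1 was the lowest of the 4 TKO Dnmt3a libraries, and both DKO Dnmt3a libraries lay below the median of those 4. The mean log2(RPKM + 0.5) of the list was 5.10 (TKO) and 5.08 (DKO) with Dnmt3b1, against 6.10 and 6.45 (TKO+Dnmt3a1), 5.43 and 6.16 (TKO+Dnmt3a2), 5.43 (DKO+Dnmt3a1) and 5.35 (DKO+Dnmt3a2). The list held 24 falls without TKO+Dnmt3a2 replicate 1, 7 without DKO+Dnmt3a2, 3 without DKO+Dnmt3b1 and 0 without TKO+Dnmt3b1. Scaled to the naive pluripotency list its median was −0.30 and 4 members fell. Further named falls of non-tracking genes showed the same dip in TKO+Dnmt3a2 replicate 1. Prelid2 was at 6.59 (TKO) and 6.07 (DKO) RPKM with Dnmt3b1, against 36.1, 49.4, 15.1, 41.1, 11.4 and 12.7 RPKM with Dnmt3a. Mgarp, a mitochondrial protein, differed by −1.59, and Tjp3, a tight-junction scaffold, by −1.67. In the class between, Selenbp1, Cd164l2 and Pacsin1 differed by −1.61, −1.45 and −1.36. Wdr86 did not show that dip to the same extent: it was at 0.994 (TKO) and 1.02 (DKO) RPKM with Dnmt3b1, against 5.68, 5.68, 3.92, 5.32, 2.92 and 3.13 RPKM with Dnmt3a, a difference of −1.59 (SE 0.20; adjusted p = 0.00186).

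Promoters of germline genes are classic targets of DNA methylation. Of 39 tested, 1 rose (2.56%) and 6 fell (15.4%), against 16.1% and 11.1% of all genes (median −0.12), and 26 differed by under 0.5 (log2). The share that fell lay near that of all genes, and scaled to the naive list 4 members rose and 2 fell (median 0.19). Dazl, an RNA-binding protein of germ cells, was the rise. Sycp3, a part of the synaptonemal complex, fell the most of the list, and Stra8, the gatekeeper of meiosis, was a named fall outside it. Their RefSeq promoters (GRCm38.p6, same window) are shown with each CG, the site these enzymes methylate, in capitals.
Dazl (chr17:50293571-50293870, minus strand): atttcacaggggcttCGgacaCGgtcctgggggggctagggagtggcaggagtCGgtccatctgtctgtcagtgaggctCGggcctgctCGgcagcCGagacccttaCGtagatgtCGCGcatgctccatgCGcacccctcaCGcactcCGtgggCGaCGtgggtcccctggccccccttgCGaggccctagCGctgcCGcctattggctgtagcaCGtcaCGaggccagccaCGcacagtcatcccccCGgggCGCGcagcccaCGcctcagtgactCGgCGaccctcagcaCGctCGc
Sycp3 (chr10:88459337-88459636, plus strand): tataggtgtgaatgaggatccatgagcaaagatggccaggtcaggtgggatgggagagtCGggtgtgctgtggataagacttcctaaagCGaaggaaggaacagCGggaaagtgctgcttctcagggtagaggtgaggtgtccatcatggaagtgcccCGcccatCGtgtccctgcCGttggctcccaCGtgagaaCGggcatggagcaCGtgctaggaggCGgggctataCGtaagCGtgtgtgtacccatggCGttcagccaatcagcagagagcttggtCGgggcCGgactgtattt
Stra8 (chr6:34920698-34920997, plus strand): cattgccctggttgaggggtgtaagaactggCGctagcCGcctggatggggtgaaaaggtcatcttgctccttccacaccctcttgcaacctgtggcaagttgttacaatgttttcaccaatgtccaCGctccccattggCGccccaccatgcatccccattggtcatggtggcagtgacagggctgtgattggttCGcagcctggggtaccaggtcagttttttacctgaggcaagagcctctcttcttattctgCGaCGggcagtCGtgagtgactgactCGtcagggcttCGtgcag
The Dazl window holds 28 CG sites, that of Sycp3 15 and that of Stra8 10, against a median of 20 over the promoters of genes tested and 18.5 over the 40 promoters listed for 34 germline genes tested. Methylation of these windows was not measured here.

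Dazl was at 29.0 (TKO) and 9.01 (DKO) RPKM with Dnmt3b1. In the Dnmt3a libraries it was at 7.30 and 15.9 RPKM (TKO+Dnmt3a1), 6.87 and 5.55 RPKM (TKO+Dnmt3a2), 2.92 RPKM (DKO+Dnmt3a1) and 2.96 RPKM (DKO+Dnmt3a2), and in the parents at 42.2 (TKO) and 18.7 (DKO) RPKM. In both families the Dnmt3b1 library lay between the parent and every Dnmt3a library. The difference was 1.63 (SE 0.33; adjusted p = 0.00885, limma), at 1.77 within TKO and 1.47 within DKO. Sycp3 was at 1.59 (TKO) and 3.28 (DKO) RPKM with Dnmt3b1, against 4.88, 9.52, 3.98 and 8.31 RPKM (TKO) and 14.2 and 13.3 RPKM (DKO) with Dnmt3a, a difference of −1.79 (SE 0.29; adjusted p = 0.00425). The parents held 3.52 (TKO) and 10 (DKO) RPKM, so that the Dnmt3b1 value was the lowest of each family. Stra8 was at 27.2 (TKO) and 2.36 (DKO) RPKM with Dnmt3b1, against 105, 129, 62.5 and 80.7 RPKM (TKO) and 9.32 and 7.24 RPKM (DKO) with Dnmt3a, a difference of −1.67 (SE 0.24; adjusted p = 0.00288). With Dnmt3b1 the TKO value was near that of the parent, at 26.5 RPKM, and the DKO value was below its parent, at 10.8 RPKM. Dmrt1, a transcription factor of the germline that was named by the stricter view, was at 16.8 (TKO) and 4.80 (DKO) RPKM with Dnmt3b1, against 35.6 to 40.1 RPKM (TKO) and 18.8 and 17.0 RPKM (DKO) with Dnmt3a, a difference of −1.44 (SE 0.14; adjusted p = 0.00085). The other falls of the list were Rec8, a meiotic cohesin (−1.24), Cyct, the testis cytochrome c (−0.91), Dmc1, a meiotic recombinase (−0.91), Tex14, of intercellular bridges (−0.81), and Rnf17 (−0.48). The falls numbered 0 without TKO+Dnmt3b1 and 1 without DKO+Dnmt3b1, and Dazl was called in neither of these fits.

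**Figure D4:**
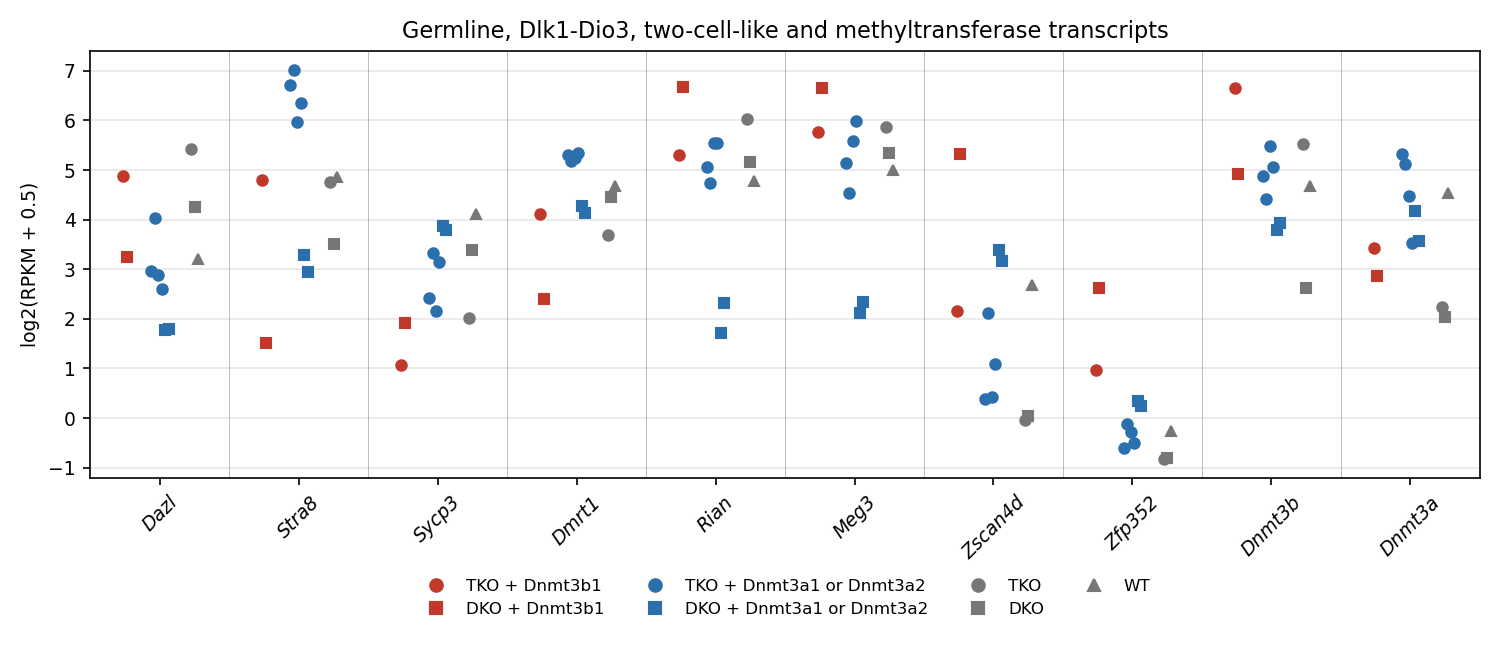
log2(RPKM + 0.5) (y axis) of 10 transcripts (x axis), 1 point a library (red, Dnmt3b1; blue, Dnmt3a isoforms; grey, parents and WT; circles, TKO; squares, DKO; triangle, WT). Dazl lies between parent and Dnmt3a libraries in both families, Rian and Meg3 are low in the DKO Dnmt3a libraries (blue squares) and high in DKO+Dnmt3b1 (red square), and Zscan4d is highest in DKO+Dnmt3b1.

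In the imprinted Dlk1-Dio3 cluster, whose maternal noncoding RNAs are switched off when its control region is methylated, values lay far apart between the enzymes in the DKO lines and close in the TKO lines, a contrast that missed the threshold when tested. Rian was at 102 RPKM in DKO+Dnmt3b1, against 2.78 RPKM in DKO+Dnmt3a1 and 4.48 RPKM in DKO+Dnmt3a2, with 35.1 RPKM in the DKO parent. In TKO it was at 38.8 RPKM with Dnmt3b1, against 32.9, 26.2, 46.3 and 46.1 RPKM with Dnmt3a, with 64.8 RPKM in the parent. The difference was thus 0.08 within TKO and 4.66 within DKO, and the arms did not overlap in DKO only. Over both families it was 2.16 (SE 0.81; adjusted p = 0.0788), and the test of the difference between families gave −4.59 (SE 0.52; unadjusted p = 3.01e-05, adjusted p = 0.282, limma). Meg3, another noncoding RNA of the cluster, was at 99.7 RPKM in DKO+Dnmt3b1, against 3.85 and 4.57 RPKM in the DKO Dnmt3a libraries. In TKO it was at 53.7 RPKM with Dnmt3b1, against 22.8 to 62.7 RPKM with Dnmt3a, and its family test gave −3.96 (SE 0.67; adjusted p = 0.824). Against 16.1% and 11.1% of all genes, 4 of 12 members tested rose and 0 fell (median 1.68, with 0.26 within TKO and 3.10 within DKO). These were Mirg, a host of microRNAs (2.13), Dlk1, the cluster's paternally expressed growth regulator (1.02), and Mir1906-1 and Mir1906-2, close copies whose values are uncertain. The count turned on single libraries: 0 members rose without DKO+Dnmt3b1, 7 without TKO+Dnmt3b1 and 1 without DKO+Dnmt3a2. Of the 12, 7 tracked the feeder markers, Rian and Meg3 among them, over the other 9 libraries, in which DKO+Dnmt3a2 was low for both.

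Of 44 other imprinted genes, 10 rose (22.7%) and 8 fell (18.2%), against 16.1% and 11.1% of all genes (median 0). Scaled to the naive list, 18 rose and 1 fell. Igf2, a growth factor that is paternally expressed, was at 48.8 (TKO) and 35.5 (DKO) RPKM with Dnmt3b1, against 11.7, 9.23, 17.7, 10.1, 17.3 and 12 RPKM with Dnmt3a, a difference of 1.67 (SE 0.27; adjusted p = 0.00379, limma). H19, its maternally expressed neighbour, was at 391 (TKO) and 57.8 (DKO) RPKM with Dnmt3b1, against 89.8, 109, 313 and 342 RPKM (TKO) and 66.9 and 65.6 RPKM (DKO) with Dnmt3a. H19 thus overlapped in range across the arms, and its difference of 0.52 missed the threshold (adjusted p = 0.498). Phlda2, a maternally expressed brake on placental growth, fell by 1.14, at 21.2 (TKO) and 29.9 (DKO) RPKM with Dnmt3b1, against 42.0 to 110 RPKM with Dnmt3a. The list held 0 calls without TKO+Dnmt3b1, and 4 rises and 1 fall without DKO+Dnmt3b1.

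Genes of the 2-cell-like state, a rare state of ES cells that resembles the early embryo, were higher. Of 20 that reached 1 RPKM, 18 rose and 0 fell (median 1.38), against 16.1% and 11.1% of all genes. Among the 20, 10 were non-tracking genes, and 0 tracked the feeder markers. Of these 20, 4 reached 1 RPKM only with Dnmt3b1, Zfp352 among them, and of the other 16, 14 rose. Zscan4d, a gene of telomere maintenance in this state, was at 3.95 (TKO) and 39.3 (DKO) RPKM with Dnmt3b1, against 0.799, 3.86, 0.850 and 1.62 RPKM (TKO) and 9.97 and 8.48 RPKM (DKO) with Dnmt3a. The parents were at 0.478 (TKO) and 0.523 (DKO) RPKM and WT at 5.94 RPKM, and the difference was 1.55 (SE 0.44; adjusted p = 0.0319, limma). Replicate 2 of TKO+Dnmt3a1 nearly met the TKO+Dnmt3b1 value, while DKO+Dnmt3b1 was far above all others. Tcstv3 was at 13.4 (TKO) and 65.7 (DKO) RPKM with Dnmt3b1, against 2.17, 9.91, 3.07 and 4.47 RPKM (TKO) and 15.5 and 13.6 RPKM (DKO) with Dnmt3a, a difference of 1.83 (SE 0.43; adjusted p = 0.0173). Zfp352, a zinc finger gene of this state, was at 1.45 (TKO) and 5.62 (DKO) RPKM with Dnmt3b1, against 0.156 to 0.772 RPKM with Dnmt3a, a difference of 1.78 (SE 0.25). DKO+Dnmt3b1 was the highest of all 11 libraries for 19 of the 20 genes, and TKO+Dnmt3b1 the highest of 6 TKO libraries for 17, yet TKO+Dnmt3b1 lay above both DKO Dnmt3a libraries for only 9. With the fibroblast index as a term the median was 1.30, and 0 members were called in that fit. The rises numbered 10 without DKO+Dnmt3a2, 9 without TKO+Dnmt3b1 and 3 without DKO+Dnmt3b1. Zscan4, Usp17l, Tdpoz and Tcstv genes are close copies, and their single values are uncertain and not independent.

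Genes of endoderm were higher as well. Of 22 tested, 15 rose and 0 fell (median 0.97), against 16.1% and 11.1% of all genes. Among the 7 non-tracking members 4 rose. Of the 22, 1 reached 1 RPKM only with Dnmt3b1. Dab2, an endocytic adaptor of primitive endoderm, was at 16.4 (TKO) and 10.6 (DKO) RPKM with Dnmt3b1, against 4.44, 5.43, 4.34, 4.46, 2.37 and 2.11 RPKM with Dnmt3a, a difference of 1.86 (SE 0.14; adjusted p = 0.000457, limma). The arms did not overlap, and the parents held 12.2 (TKO) and 4.65 (DKO) RPKM. Cubn, the cubilin receptor, was at 7.72 (TKO) and 3.06 (DKO) RPKM with Dnmt3b1, against 1.75 to 3.71 RPKM (TKO) and 0.609 and 0.675 RPKM (DKO) with Dnmt3a, a difference of 1.59 (SE 0.24; adjusted p = 0.00328). The parents held 7.61 (TKO) and 1.16 (DKO) RPKM of Cubn, so that TKO+Dnmt3b1 was near its parent and DKO+Dnmt3b1 above its own. Fibroblasts share some of the risers, such as Sparc, Pdgfra and the collagens Col4a1 and Col4a2, which differed by 1.69, 1.99, 2.07 and 2.15. The lineage factors Gata6 and Sox17 differed by 0.71 and 0.38 and missed the threshold (adjusted p = 0.126 and 0.261). The rises numbered 7 without TKO+Dnmt3b1 and 11 without DKO+Dnmt3b1.

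Of 27 writers, erasers and readers of DNA methylation, 6 rose (22.2%) and 2 fell (7.41%), near the 16.1% and 11.1% of all genes (median 0.10). Scaled to the naive list, 14 rose and 0 fell. Beside Dnmt3b, the rises included Mbd2, a methyl-CpG reader, at 18.2 (TKO) and 13.7 (DKO) RPKM with Dnmt3b1, against 6.0 to 11.8 RPKM with Dnmt3a, a difference of 0.96 (SE 0.16; adjusted p = 0.00487, limma). The readers Zbtb38 and Zbtb4 differed by 0.74 and 1.86. The oxidases Tet1 and Tet2 fell by 0.30 and 0.42. Dnmt3l, the inactive partner of these enzymes, was at 346 (TKO) and 190 (DKO) RPKM with Dnmt3b1, against 275 to 416 RPKM (TKO) and 187 and 252 RPKM (DKO) with Dnmt3a, and its difference of −0.10 missed the threshold (adjusted p = 0.705). Without DKO+Dnmt3b1 the list held 2 rises and 0 falls, and without TKO+Dnmt3b1 it held 1 rise and 0 falls.

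The largest fall of a non-tracking gene was that of Mir6516, for which the table gives reads over a short microRNA hairpin. PolyA libraries do not measure mature microRNAs, so that the values stand for longer RNA over that place. The mature sequences are shown from RefSeq (GRCm38.p6) with the seed, bases 2 to 8, in capitals, and their seeds differ from each other.
mmu-miR-6516-5p (chr11:117077370-117077391, plus strand): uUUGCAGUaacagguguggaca
mmu-miR-6516-3p (chr11:117077412-117077433, plus strand): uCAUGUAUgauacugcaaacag
Mir6516 was at 7.90 (TKO) and 8.01 (DKO) RPKM with Dnmt3b1, against 45.7, 113, 27.4, 89.1, 52.7 and 54.8 RPKM with Dnmt3a, a difference of −2.76 (SE 0.45; adjusted p = 0.00433, limma). Both Dnmt3b1 libraries lay below all others, and TKO+Dnmt3a2 replicate 1 was the lowest with Dnmt3a. Snord73a and Mir6999, also short, differed by −1.89 and −1.67, at 0 to 1.35 RPKM with Dnmt3b1 and 0.999 to 5.17 RPKM with Dnmt3a, a level of few reads.

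By isoform, 1877 genes were higher (13.4%) and 1051 lower (7.5%) with Dnmt3b1 than with Dnmt3a1, and 1446 were higher (10.3%) and 523 lower (3.73%) than with Dnmt3a2. The comparisons share both Dnmt3b1 libraries. Between Dnmt3a1 and Dnmt3a2 themselves 0 genes were called (limma; 293 at an unadjusted p under 0.05, 2.09%, with 0.985% higher and 1.11% lower). Each count fell to 0 without DKO+Dnmt3b1 (4372 and 3484 genes at an unadjusted p under 0.05) and to 24 and 108 without TKO+Dnmt3b1. Of the hypoxia and glycolysis list, 18 members were called against Dnmt3a1 and 1 against Dnmt3a2, a contrast that was not tested for the list. The list mean was 5.43 and 6.16 in the TKO+Dnmt3a2 replicates and 6.10 and 6.45 in those of TKO+Dnmt3a1. In DKO+Dnmt3a2 and DKO+Dnmt3a1 it was 5.35 and 5.43. Bnip3 differed by −2.36 from Dnmt3a1 (adjusted p = 0.0262) and by −1.79 from Dnmt3a2 (adjusted p = 0.0679). Stra8 differed by −1.96 from Dnmt3a1 (adjusted p = 0.00384) and by −1.38 from Dnmt3a2 (adjusted p = 0.00501). Dazl differed by 1.38 from Dnmt3a1 (adjusted p = 0.0268) and by 1.88 from Dnmt3a2 (adjusted p = 0.0125).

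Whether the difference depends on the family, without or with Dnmt1, was asked by testing the TKO difference against the DKO difference. Each family held 1 Dnmt3b1 library. The families also differed in Y-linked transcripts, as given below, so that Dnmt1 cannot be told apart from other differences between them. By limma 0 genes were called (377 at an unadjusted p under 0.05, 2.69%, with 0.571% higher and 2.12% lower, and a lowest adjusted p of 0.282). Hmga2 differed by 2.92 within TKO and 2.84 within DKO, and Stra8 by −1.72 and −1.61. Ndufa4l2 differed by −3.48 within TKO and −1.73 within DKO, and the test between families gave −1.74 (SE 1.13; unadjusted p = 0.163), which missed the threshold. Within TKO alone 714 genes were called, and within DKO alone 0 (4769 at an unadjusted p under 0.05), with 3 libraries in that fit.

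**Figure D5:**
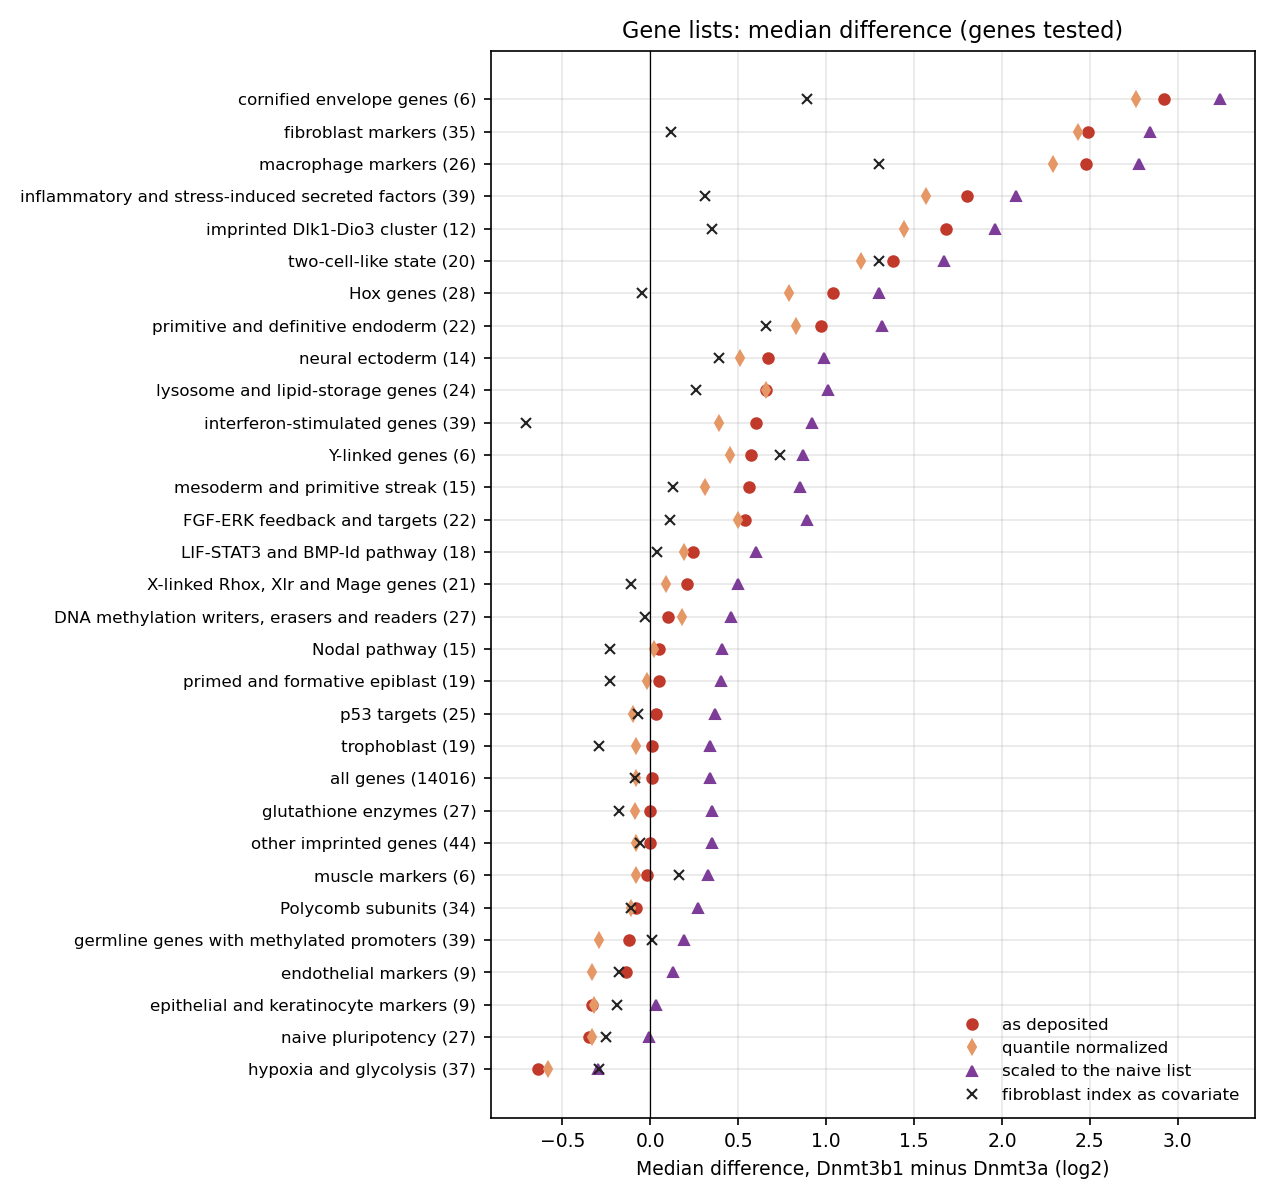
Median difference in log2(RPKM + 0.5), Dnmt3b1 minus Dnmt3a (x axis), over the tested members of each gene list (y axis, number tested in brackets) and over all 14016 genes, as deposited (circles), after quantile normalization (diamonds), scaled to the naive pluripotency list (triangles) and with the fibroblast index as a term (crosses). The index is the mean of the fibroblast markers, so that the median of that list with the index as a term (0.12) follows from its making. Scaling to the naive list puts the median of all genes at 0.34, against 0.01 as deposited. It puts that of the naive list itself at −0.01, which follows from its making.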

How the data were processed

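Values were RPKM, deposited by the authors for 24016 genes in 11 polyA libraries. The submitters' processing notes name STAR 2.4.0, bcl2fastq 1.8.4 and mm9. The TruSeq v2 kit keeps no strand, so overlapping genes share reads. The counting tool, gene lengths and treatment of duplicates are not given in the sources used here. Depth, read from the spacing of RPKM of short transcripts, came to 21.76 to 32.78 M reads, with 87.3% to 91.9% of those values whole reads within 0.05. At RPKM the count test named for count data was not used.

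Values were taken as log2(RPKM + 0.5), which understates the change of low genes. The 14016 genes reaching 1 RPKM in any of the 8 libraries were fitted with limma 3.58.1 (eBayes with a trend, R 4.3.3), with family and enzyme as terms, 5 residual and 3.67 prior degrees of freedom. The threshold for a call was 0.05 on p adjusted by Benjamini-Hochberg across the tested genes. The method was tested on simulated data. Members and lists were chosen with earlier results of these data known. Named genes were the 12 largest rises and falls among non-tracking genes, 6 among tracking and 4 between, of called genes at a mean of 1 RPKM or more in an arm, with both Dnmt3b1 libraries beyond their family's Dnmt3a libraries and no predicted name. Some named genes are not reported here. Members of the 30 lists were described by list. Alternatives were other pseudocounts, filters, scalings, terms and left-out libraries. Sequences came from RefSeq tables of GRCm38.p6, matched by symbol, for 10155 of the tested genes.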

Additional observations from a re-analysis of the deposited data

Results flagged for a closer look

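Among the 6 Dnmt3a libraries, Dixon's test was applied to both feeder marker indices and to the 44 named genes, 46 groups of values in all, of which chance flags about 1 in 20. It flagged 4, each time for DKO+Dnmt3a2 as the lowest library. The fibroblast index was 1.79 there, with a gap of 0.692 of the range to the next library. The macrophage index was −0.51 there, with a gap of 0.629 of the range. For genes the gap was taken on log2(RPKM + 0.5). Tnc was at 1.90 RPKM, with a gap of 0.684 of the range on that scale, and Lyz2 at 0.066 RPKM, with a gap of 0.891. Without DKO+Dnmt3a2 the fibroblast markers still held 34 rises of 35 and the macrophage markers 23 of 26, with medians of 2.0 and 2.20. By limma, the difference between Dnmt3b1 and Dnmt3a depended on the family in 0 genes past the threshold, and in 377 at an unadjusted p under 0.05.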

How the results depend on the processing

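The number of calls, 3814, moved by less than 1.5 times under pseudocounts, filters, other scalings, a fit without trend and chromosome medians. Which genes were called moved more: scaled to the naive list 5514 were called, 2511 of them shared, with 95.4% higher against 59.3%, and after quantile normalization 4455, 3445 of them shared, with 44.1% higher. The calls were 1810 without the family term, 714 in TKO alone, 0 in DKO alone (4769 unadjusted) and 0 with the fibroblast index as a term (464 unadjusted), where feeder-tracking and non-tracking calls were also 0 and 0. Non-tracking calls were 3083 when scaled to the naive list. Feeder-tracking calls were 376 with limits of r at 0.8 and 0.4, and 1034 with r taken over the 6 Dnmt3a libraries. The test between families gave 89 genes with no filter on low values. The scaling to the naive list, the single-family fits and the index as a term for the gene classes were chosen after seeing the data.

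Leaving out 1 library at a time gave 413 (without TKO+Dnmt3b1) to 5068 calls (without TKO+Dnmt3a2 replicate 1), 199 to 625 feeder-tracking calls and 33 to 2843 non-tracking calls. Against Dnmt3a1 it gave 0 to 3436 calls, against Dnmt3a2 0 to 3055, and between families 0 to 1. The family test could not be fitted without a Dnmt3b1 library. With the replicate number as a block 3039 genes were called. The numbers only name libraries: replicate 1 minus 2 correlated at 0.09 across genes between the lines with 2 libraries, so the block was not used.

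Of the 44 named genes, 12 were still called without TKO+Dnmt3b1 and 30 without DKO+Dnmt3b1, 24 in TKO alone and 0 in DKO alone. With the index as a term 0 were called, and 3 reversed: Arhgdib (−0.36), Lyz2 (−2.84) and Il1rl1 (−0.38), each at an adjusted p of 1.00. The index inflated the variance of the enzyme term by 6.08, and the cause was not tested. At these depths values under about 1 RPKM rest on few reads in short transcripts.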

Other observations

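Further lists held small counts, to be read against the 16.1% of all genes that rose and the 11.1% that fell. Of 34 Polycomb subunits, 5 rose and 6 fell (median −0.08). The rises were led by Bmi1 (1.36) and Phc2 (1.04), of repressive complex 1, and the falls by Phc1 (−0.69), its ES cell paralog, and Mtf2 (−0.67) and Suz12 (−0.59), of complex 2. Of 18 genes of the LIF-STAT3 and BMP-Id pathways, 5 rose and 4 fell (median 0.24). Socs3, a feedback brake induced by STAT3, was at 27.6 (TKO) and 32.2 (DKO) RPKM with Dnmt3b1, against 45.9 to 83.9 RPKM with Dnmt3a, a difference of −1.0 (SE 0.21; adjusted p = 0.0105, limma). Id3, Id2 and Id4, targets of BMP, differed by 1.47, 1.13 and 1.12. Of 15 Nodal pathway genes, 3 rose and 4 fell (median 0.05), with Tdgf1, the coreceptor, at −0.88.

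Of 25 p53 targets, 5 rose (20%) and 2 fell (8%), near the shares of all genes (median 0.03), the rises including Plk2 (1.91), Cdkn1a, a cell-cycle inhibitor (1.59), and Mdm2, the ligase of p53 (0.92). Of 39 interferon-stimulated genes, 7 rose (17.9%) and 2 fell (5.13%), also near those shares (median 0.60), led by Ifit3 (1.96) and Irf7 (1.68), and the median was −0.71 with the fibroblast index as a term. Of 27 glutathione enzymes, 6 rose and 6 fell (median 0), with Gpx8 at 2.32 and Gpx4 at −0.77. Of 14 neural genes 6 rose and 0 fell (median 0.67), and of 15 mesoderm genes 6 rose and 1 fell (median 0.56), led by Snai2 (3.06), a factor that fibroblasts also use. Of 19 trophoblast genes 4 rose and 2 fell (median 0.01), with Tfap2c at −1.16. Among 21 Rhox, Xlr and Mage genes on X 1 rose, Maged2 (0.52), and of 6 Y-linked genes 1 rose, Kdm5d (1.27). Summed, Y-linked genes were at 9.74 RPKM in TKO+Dnmt3b1 and 1.52 to 4.13 RPKM in the TKO Dnmt3a libraries. They were at 75.5 RPKM in DKO+Dnmt3b1 and 86.7 and 88.0 RPKM in the DKO Dnmt3a libraries. The parents held 2.02 (TKO) and 46.2 (DKO) RPKM, and WT 1.06 RPKM, so that the families differed in more than Dnmt1. Of the neural genes 3, of the mesoderm genes 2, of the trophoblast genes 2, of the X-linked genes 1 and of the Y-linked genes 1 reached 1 RPKM only with Dnmt3b1. In each of these 11 lists, at most 2 members rose and 0 fell without TKO+Dnmt3b1, 0 to 5 rose and 0 to 2 fell without DKO+Dnmt3b1, and 0 or 1 fell when scaled to the naive list. Chromosome medians of the difference lay between −0.06 and 0.06 on the autosomes and X, and at 0.57 on Y, with 6 genes. Single libraries were also set against the mean of the 11 libraries. On chromosome 11 TKO+Dnmt3a1 replicate 2 stood at 0.34 against −0.02 in replicate 1. The TKO parent stood at 0.40 on chromosome 6, 0.32 on 16, 0.29 on 11, 0.24 on 8 and 0.22 on 12. Stra8, set beside that parent above, lies on chromosome 6. The cause of these shifts was not tested.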
